A study of Botryllus schlosseri with 27 samples.

Results

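Tubulins are the building blocks of microtubules. One alpha and one beta chain pair into a heterodimer, and heterodimers stack into the hollow filaments that carry cargo, form the mitotic spindle and make up the core of cilia and sperm tails. Most animals hold several genes for each chain, and copies differ in the tissues that use them. Botryllus schlosseri is a colonial tunicate, an invertebrate chordate whose colonies consist of many genetically identical zooids joined by a shared vasculature outside the bodies.

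The 4 tubulin contigs described here are those on the study's short list of named genes that differed between old and young colonies: tubulin alpha-1A (Bot_rep_c58495), tubulin alpha-3C/D (CAP3_round1_contig_7678), tubulin alpha-3E (its contig name heads its panel in the plot of library values) and tubulin beta-2C (Bot_rep_c57029). They are 3 alpha chains and 1 beta chain out of 50106 contigs, which are assembled transcript fragments. Their names are those of the closest human proteins, and they do not show which Botryllus gene corresponds to which human gene. The contigs were chosen on their levels at 3 years against 4 months in 18 of the libraries used here, where they were lower at 3 years, so that contrast is given below as a description with no test. The 2-year-old colonies had no part in the choice.

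RNA was taken from whole laboratory-raised colonies of 3 lines, named SMG, SMH and SB825, and sequenced after polyA capture. Each line was sampled at 4 months, 2 years and 3 years. Every combination of line and age has 3 libraries, which makes 27. The study describes the colonies as wild type, with no treatment. The 2-year-old colonies are the offspring of the 3-year-old ones and the 4-month-old colonies the offspring of the 2-year-old ones, so age cannot be told apart from generation. The 3 libraries of a line and age carry 1 genotype name, and their sum is called a colony here, which gives 3 colonies for each age. The study counts them as biological replicates, but the labels do not say whether they came from separate colonies, so p-values over libraries measure only the spread between these samples, which may be technical.

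The libraries held 31013902 to 48426188 reads, and the colonies 109038294 to 126872964. Levels are given as CPM, read counts relative to a common library total after TMM scaling, which corrects each total for its composition. Colonies and libraries were scaled separately, so a colony's CPM is not exactly the mean of its libraries. CPM is not corrected for contig length, so sums and shares of reads over contigs are read only for how they change between colonies. The 4-month-old SMG colony stood apart from the rest of the series. It had 11663 contigs with no read, against 4509 to 5919 in the other colonies, and its libraries differed most from one another over all contigs (chi-square per degree of freedom 56.7, against 5.83 to 27.2). The differences between 3 years and 4 months are given with and without it. The labels name this line SMG at every age, while the count table writes SMGO for the 4-month-old libraries, and the differences within SMG rest on taking both names as 1 line.

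The tubulin contigs were well covered. A single library held 142 to 25002 reads of a member, and all 4 members passed the filter on low counts. Between the 3 libraries of a colony the median coefficient of variation was 6.89% for beta-2C, 7.48% for alpha-3C/D, 7.89% for alpha-1A and 7.93% for alpha-3E. The highest was 23.3%, for alpha-3C/D in the 3-year-old SB825 colony, where library 3 was lower than the other two for all 4 contigs.

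**Figure D1:**
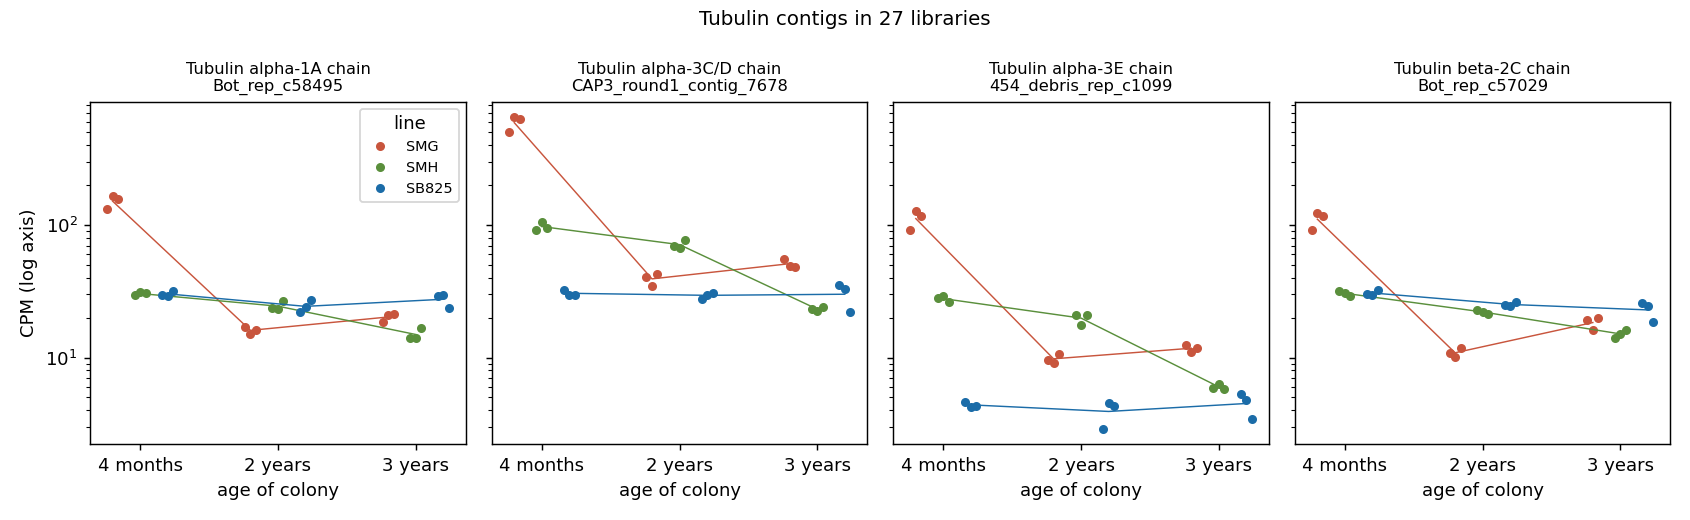
CPM of the 4 tubulin contigs (log axis) in the 27 libraries by age of colony, coloured by line; points are libraries and lines join the means of 3 libraries. The 4-month-old SMG libraries sit above all others in each panel, at 132 to 164 CPM for alpha-1A and 502 to 649.5 CPM for alpha-3C/D.

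Tubulin alpha-1A bears the name of an alpha chain that is prominent in the developing nervous system of mammals. In SMG its libraries were at 132, 164 and 157 CPM at 4 months, 17.1, 15.0 and 16.1 CPM at 2 years, and 18.6, 20.9 and 21.2 CPM at 3 years. In SMH they were at 29.5, 31.4 and 30.5 CPM at 4 months, 23.5, 23.1 and 26.6 CPM at 2 years, and 14.1, 14.0 and 16.7 CPM at 3 years. In SB825 they were at 29.7, 29.1 and 32.0 CPM at 4 months, 22.0, 24.0 and 26.99 CPM at 2 years, and 29.2, 29.7 and 23.8 CPM at 3 years. The 4-month-old SMG libraries thus lay far above all others, while the remaining 24 libraries stayed between 14.0 and 32.0 CPM. The colony means were 20.7 ± 6.42 CPM at 3 years and 74.6 ± 75.0 CPM at 4 months (SD, n = 3 colonies each), a log2 difference of -1.85 between 3 years and 4 months, or -0.60 without the 4-month-old SMG colony. The 4-month SD is as large as its mean, because 72.0% of the summed 4-month level came from the SMG colony.

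Tubulin alpha-3C/D carries the name of human chains known mainly from testis. Its SMG libraries were at 502, 649.5 and 627 CPM at 4 months, 40.4, 34.8 and 42.7 CPM at 2 years, and 55.5, 49.4 and 48.5 CPM at 3 years. Its SMH libraries were at 92.2, 105 and 95.4 CPM at 4 months, 69.0, 66.9 and 77.7 CPM at 2 years, and 23.2, 22.3 and 24.0 CPM at 3 years. Its SB825 libraries were at 32.3, 29.7 and 29.7 CPM at 4 months, 27.9, 29.8 and 30.8 CPM at 2 years, and 35.4, 32.7 and 22.1 CPM at 3 years. Each of the 3 lines therefore had its own course, with levels far below those of 4 months at both later ages in SMG, the widest gap between 2 and 3 years in SMH, and overlapping libraries at all ages in SB825. Colony means were 34.2 ± 13.8 CPM at 3 years and 255 ± 327 CPM at 4 months (SD, n = 3 each), a log2 difference of -2.90, or -0.98 without the 4-month-old SMG colony. The SMG colony supplied 82.4% of the summed 4-month level.

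Tubulin alpha-3E, also named after a human chain known mainly from testis, had the lowest counts of the 4. In SMG it was at 91.2, 128 and 117 CPM at 4 months, 9.58, 9.14 and 10.6 CPM at 2 years, and 12.5, 10.96 and 11.8 CPM at 3 years. In SMH it was at 27.9, 29.4 and 26.2 CPM at 4 months, 20.8, 17.6 and 21.1 CPM at 2 years, and 5.90, 6.32 and 5.82 CPM at 3 years. In SB825 it was at 4.65, 4.24 and 4.30 CPM at 4 months, 2.91, 4.52 and 4.34 CPM at 2 years, and 5.27, 4.82 and 3.42 CPM at 3 years. After TMM scaling SB825 was the low line at every age. All 9 of its libraries lay below all 18 libraries of the other lines, as for 2.07% of all tested contigs. With library totals alone this did not hold at 3 years. There the SB825 colony had 582 of 109953340 reads on alpha-3E and the SMH colony a smaller share, 594 of 126872964. Colony means were 7.32 ± 3.66 CPM at 3 years and 51.1 ± 60.3 CPM at 4 months (SD, n = 3 each), a log2 difference of -2.80, with 77.8% of the summed 4-month level in SMG. Without the 4-month-old SMG colony it was -1.22.

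Tubulin beta-2C, the beta chain of the list, bears the name of a broadly expressed chain that is also a part of cilia. Its SMG libraries were at 91.2, 124 and 117 CPM at 4 months, 10.8, 10.1 and 11.7 CPM at 2 years, and 19.2, 16.1 and 19.9 CPM at 3 years. Its SMH libraries were at 31.6, 30.7 and 29.4 CPM at 4 months, 22.8, 22.1 and 21.4 CPM at 2 years, and 14.1, 15.0 and 16.2 CPM at 3 years. Its SB825 libraries were at 30.4, 29.4 and 32.4 CPM at 4 months, 24.8, 24.4 and 26.4 CPM at 2 years, and 25.7, 24.3 and 18.6 CPM at 3 years. After TMM scaling all 9 libraries at 3 years lay below all 9 at 4 months, as they did for 2.05% of all tested contigs. With library totals alone they overlapped. At 3 years SB825 library 1 had 1092 of 36890446 reads, a larger share than 1194 of 41611738 in SMH library 3 at 4 months. The lowest libraries of the series were those of the 2-year-old SMG colony. Colony means were 18.6 ± 3.95 CPM at 3 years and 60.3 ± 49.9 CPM at 4 months (SD, n = 3 each), a log2 difference of -1.69, with 65.2% of the summed 4-month level in SMG. Without the 4-month-old SMG colony it was -0.76.

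The order of the 9 colonies was shared at the top and differed at the bottom. The 4-month-old SMG colony came first and the 4-month-old SMH colony next for all 4 contigs, and the libraries of these colonies did not overlap. The SMG colony stood 4.96 times above the next for alpha-1A, 6.03 times for alpha-3C/D, 4.01 times for alpha-3E and 3.64 times for beta-2C. Of all tested contigs, 23.7% were highest in this colony and 1.39% were highest there by more than 3 times. The lowest colony was SMH at 3 years for alpha-1A (14.8 CPM) and alpha-3C/D (23.03 CPM), SB825 at 2 years for alpha-3E (3.91 CPM) and SMG at 2 years for beta-2C (10.5 CPM). Of the 8 pairs of neighbours in this order, libraries overlapped in 5 pairs for alpha-1A and 4 for beta-2C, against 2 each for alpha-3C/D and alpha-3E. The overlapping pairs of alpha-3C/D and alpha-3E were those among the 3 ages of SB825.

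The lower level at 3 years was seen mainly in SMG and SMH. The median log2 difference of the 4 contigs between 3 years and 4 months was -2.33, and it was -0.87 without the 4-month-old SMG colony and -1.04 without the SMG line. The same median over all contigs was 0.03. Within SMG the differences were -3.03 for alpha-1A, -3.67 for alpha-3C/D, -3.38 for alpha-3E and -2.71 for beta-2C. Within SMH they were -1.13 for alpha-1A, -2.18 for alpha-3C/D, -2.30 for alpha-3E and -1.11 for beta-2C. Within SB825 they were -0.13 for alpha-1A, -0.02 for alpha-3C/D, 0.04 for alpha-3E and -0.42 for beta-2C, and beta-2C alone of the 4 had 3-year libraries that all lay below the 4-month ones, as 27.4% of all contigs had. The medians of all contigs within a line were 0.46 in SMG, 0.00 in SMH and 0.00 in SB825. With whole colonies as the source, fewer cells that use these genes and less RNA per cell cannot be told apart.

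**Figure D2:**
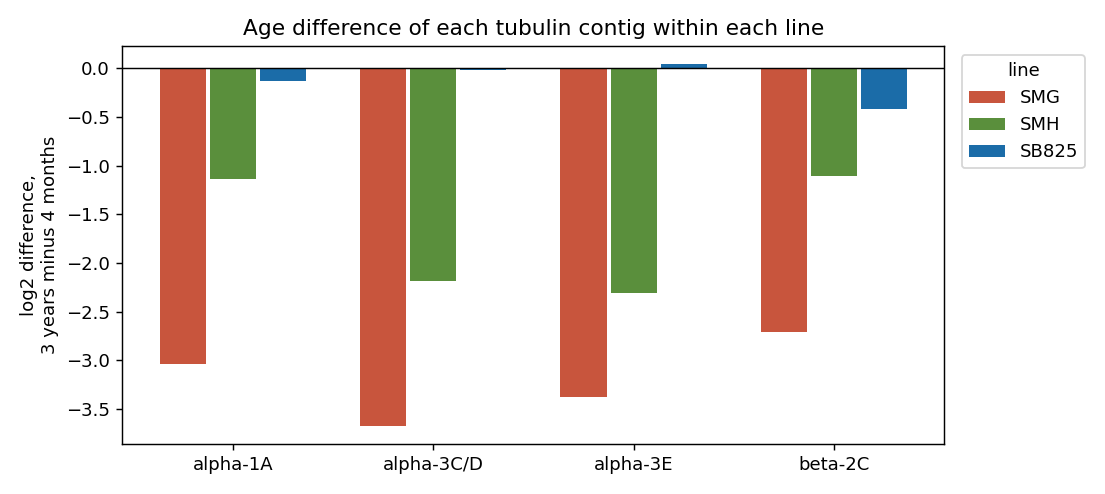
Bars give the log2 difference in colony CPM between 3 years and 4 months for each tubulin contig in each line (1 colony per line and age, so there are no error bars). The SMG bars run from -2.71 to -3.67 and the SMH bars from -1.11 to -2.30, while the SB825 bars lie between -0.42 and 0.04.

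Alpha-1A and beta-2C were the 2 of 4 contigs whose 3-year colonies all lay below the 4-month colonies, a pattern that 7.89% of all contigs shared. Without the 4-month-old SMG colony these counts were still 2 of 4, against 13.5% of all contigs. With library totals in place of TMM the count was 1 of 4, against 6.74%, since alpha-1A then overlapped. A level lower at 3 years in each of the 3 lines was found for 3 of 4 contigs, all but alpha-3E, and for 17.2% of all contigs, and library totals raised that count to 4 of 4. The contigs were listed for this contrast, and nothing is read from these shares.

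The 2-year-old colonies had no part in the listing, but the 4-month and 3-year levels set against them here did. Only comparisons among the 2-year-old colonies use none of the levels that gave the list. These comparisons are still not fully independent of it, since colonies of a line deviated together across ages (r 0.27 to 0.64 across contigs). In SMG the 2-year level was below the 3-year level for all 4 contigs, and it was below the 4-month level by 10.3 times for alpha-1A, 16.6 times for alpha-3C/D, 12.6 times for alpha-3E and 11.2 times for beta-2C. In SMH the step from 4 months to 2 years was smaller, at 1.37 times for alpha-1A, 1.51 times for alpha-3C/D, 1.55 times for alpha-3E and 1.51 times for beta-2C, and the 3-year level was lower still, with log2 differences between 3 and 2 years of -0.68, -1.59, -1.67 and -0.51 in the same order. In SMG the 3-year level was above the 2-year level for all 4 contigs, with log2 differences of 0.33 for alpha-1A, 0.39 for alpha-3C/D, 0.28 for alpha-3E and 0.78 for beta-2C, and in each case all 3 libraries lay above those at 2 years. Such a gap was found in 18.3% of all contigs. In SMH all 3 libraries at 3 years lay below those at 2 years for each of the 4, as in 22.6% of all contigs, and 5.4% of all contigs showed both. In SB825 the libraries at 3 and 2 years overlapped for all 4 contigs, as for 59.6% of all.

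A test of the 2-year-old colonies against the mean of the 3-year-old and 4-month-old colonies was made over all 9 colonies, with age as the only factor. On the log2 scale the 2-year level differed by -0.89 (SE 0.58) for alpha-1A, -1.04 (SE 0.85) for alpha-3C/D, -0.84 (SE 0.92) for alpha-3E and -0.82 (SE 0.52) for beta-2C. With a false discovery rate of 10% as the threshold, the quasi-likelihood test in edgeR called none of the 4, with an adjusted p of 1.00 for each and unadjusted p of 0.152 to 0.389 (9 colonies). DESeq2 called 0 of the 4 as well. Over all contigs 0% were called by edgeR and 2.37% had an unadjusted p under 0.05, while DESeq2 called 116 contigs. The 4-month colonies enter both this test and the contrast that gave the list, and without the 4-month-old SMG colony the differences were -0.22 for alpha-1A, -0.03 for alpha-3C/D, 0.01 for alpha-3E and -0.31 for beta-2C.

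Whether the lines differed was asked in 2 ways. The listing did not compare lines, but the test over all 9 colonies includes the old and young colonies whose levels gave the list. Its line differences are therefore not independent of that choice. Over all 9 colonies, with age as a covariate, edgeR called 0 of the 4 contigs, and the adjusted p was 0.310 for alpha-3E, 0.481 for alpha-3C/D, 0.717 for alpha-1A and 0.847 for beta-2C. None of the 4 had an unadjusted p under 0.05 in this F test, the lowest being 0.0676 for alpha-3E, and DESeq2 called 0 of the 4. In the same test 3.52% of all contigs were called. Of its single contrasts, alpha-3E was at 2.49 between SMG and SB825 on the log2 scale (SE 0.86), with an unadjusted p of 0.0254 and an adjusted p of 0.191 in edgeR. Without the 4-month-old SMG colony the adjusted p of the F test was 0.173 for alpha-3E, 0.400 for alpha-3C/D, 0.583 for alpha-1A and 0.460 for beta-2C. With 1 colony per line and age, the residual of this test holds the unlike courses of the lines described above.

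Within the 9 libraries of the 2-year-old colonies, all 4 tubulin contigs differed between the SMG, SMH and SB825 colonies. The adjusted p of edgeR's F test was 0.000398 for alpha-1A, 4.18e-07 for alpha-3C/D, 1.63e-07 for alpha-3E and 5.41e-07 for beta-2C. The same test called 75.4% of all contigs, so 4 of 4 is near the background. It measures 3 single colonies against the spread of their libraries and says nothing of the lines as populations.

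The 2-year-old SMG colony had the lowest alpha-1A and beta-2C and an intermediate level of the other contigs. Its alpha-1A fell by 0.59 on the log2 scale relative to SB825 (SE 0.11, edgeR adjusted p = 0.000433), and its beta-2C fell by 1.21 (SE 0.10, adjusted p = 3.59e-07). Its alpha-3E was higher than in SB825 by 1.32 (SE 0.16, adjusted p = 1.51e-05). Its alpha-3C/D was higher by 0.42 (SE 0.10, adjusted p = 0.00322), a direction that turned with library totals as the scaling, to -0.48 (adjusted p = 0.0173), where the median of all contigs was -0.87. With library totals alpha-3E was at 0.43 (adjusted p = 0.0587), alpha-1A at -1.48 and beta-2C at -2.10, all still past the threshold in the same direction. Of all contigs, 31.6% were called higher and 30.9% lower in SMG than in SB825.

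The 2-year-old SMH colony had the highest alpha-3C/D and alpha-3E. These were above SB825 by 1.27 (SE 0.10, adjusted p = 2.76e-07) and 2.34 (SE 0.16, adjusted p = 7.44e-08) on the log2 scale, while 29.7% of all contigs were called higher in SMH than in SB825. Alpha-1A and beta-2C did not pass the threshold between SMH and SB825, at 0.01 (SE 0.11, adjusted p = 0.961) and -0.19 (SE 0.10, adjusted p = 0.125). With library totals they passed it, at -0.55 (adjusted p = 0.0142) and -0.75 (adjusted p = 0.000645), where the median of all contigs was -0.53. DESeq2 also called beta-2C, at -0.21 (adjusted p = 0.0768). Between SMG and SMH all 4 contigs were lower in SMG, with log2 differences of -0.60 for alpha-1A, -0.85 for alpha-3C/D, -1.02 for alpha-3E and -1.02 for beta-2C and adjusted p of 2.77e-06 to 0.000655, while 24.4% of all contigs were called lower in SMG.

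By the range of their ratios over the 27 libraries, alpha-1A went with beta-2C and alpha-3C/D with alpha-3E. The ratio of alpha-1A to beta-2C reads was 0.889 to 1.58 over the 27 libraries, a range of 1.77 times, while each contig on its own ranged over 11.8 times (alpha-1A) and 12.3 times (beta-2C). These are an alpha and a beta chain, the kinds of chain that pair in a heterodimer. The ratio of alpha-3C/D to alpha-3E reads ranged over 2.91 times, at 3.81 to 5.50 in SMG, 3.30 to 4.12 in SMH and 6.47 to 9.59 in SB825, while the contigs themselves ranged over 29.3 and 44.0 times. The ratio was highest in all 9 SB825 libraries, which overlapped neither of the other lines. Over the 27 libraries ratios across the pairs moved more, up to 8.78 times for alpha-3E over beta-2C. That ratio was 0.593 to 1.03 in SMG, 0.360 to 0.989 in SMH and 0.117 to 0.205 in SB825. Within SMG and SB825 some ratios across the pairs were about as steady as those within them. Alpha-1A over alpha-3E was 1.29 to 1.91 in SMG and 5.32 to 7.58 in SB825, but 1.06 to 2.87 in SMH. Alpha-1A over alpha-3C/D was 0.790 to 1.08 in SB825, but 0.300 to 0.695 in SMH. The size of a ratio depends on the lengths of the contigs, which were not used here, so its change over libraries is the only quantity read.

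**Figure D3:**
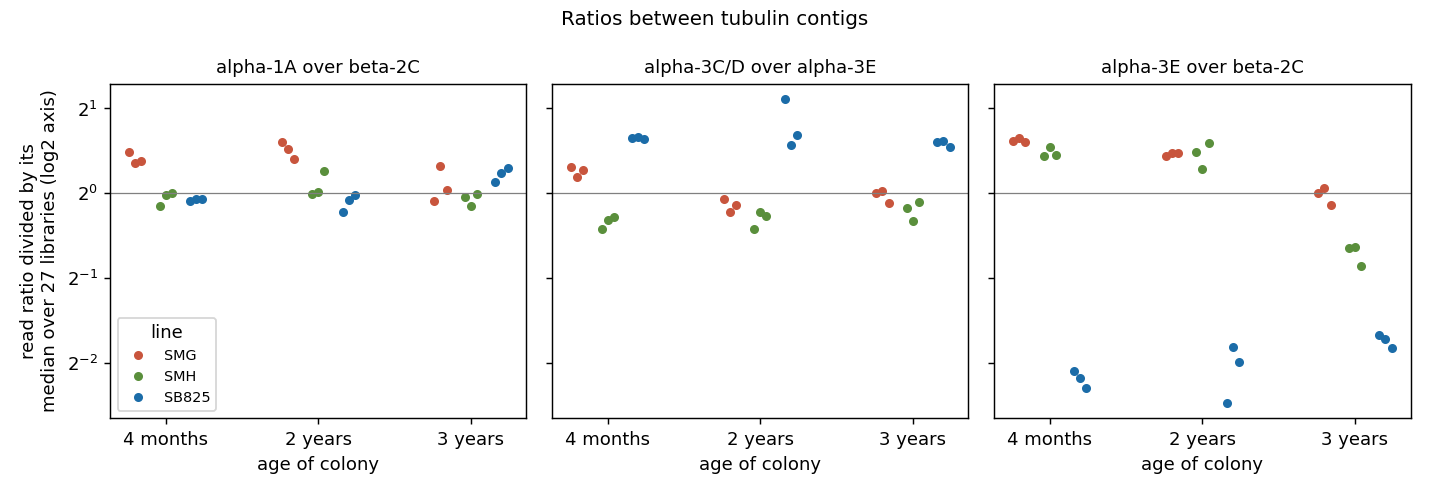
Ratio of reads of one tubulin contig to another in each library, divided by its median over the 27 libraries (log2 axis), by age and line. Alpha-1A over beta-2C stays within a range of 1.77 times, alpha-3C/D over alpha-3E is higher in SB825 than in the other lines, and alpha-3E over beta-2C spreads over 8.78 times.

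A search of 43180 contigs for the most similar patterns showed where the same pairs rank among other contigs. Likeness was the root mean square (RMS) difference of log2 CPM over the 27 libraries, after centring each contig on its mean. Pearson's correlation r was taken over the same libraries, which share the 9 colonies. For a pair of contigs this RMS is nearly the spread of their log ratio over the same libraries. The search thus restates the ratios above, and only the ranks are added. For alpha-1A the nearest contigs were CAP3_round1_contig_7317 (RMS 0.19, r 0.98), Bot_rep_c41249 (RMS 0.21, r 0.98) and beta-2C itself (RMS 0.23, r 0.97). For beta-2C they were CAP3_round1_contig_7772 (RMS 0.12, r 0.99), CAP3_round1_contig_3940 (RMS 0.14, r 0.99) and Bot_rep_c36535 (RMS 0.14, r 0.99), with alpha-1A in place 4. Alpha-3C/D and alpha-3E each held place 3 for the other (RMS 0.42, r 0.96). Ahead of them stood CAP3_round1_contig_7112 (RMS 0.22, r 0.99) and Bot_rep_c58230 (RMS 0.41, r 0.95) for alpha-3C/D, and Bot_rep_c48996 (RMS 0.41, r 0.98) and CAP3_round1_contig_5730 (RMS 0.42, r 0.96) for alpha-3E. The other contigs named here are without a gene name in the tables used. Across the pairs the likeness was lower. It was closest between alpha-1A and alpha-3C/D (RMS 0.70, r 0.88), where alpha-1A held place 65 for alpha-3C/D. Next came alpha-3C/D and beta-2C (RMS 0.81, r 0.82) and alpha-1A and alpha-3E (RMS 1.03, r 0.74). The least alike were alpha-3E and beta-2C (RMS 1.12, r 0.67).

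The part of the study's longer table of contigs with human matches that was at hand names 10 more tubulin chains. They were chosen there for differing between old and young, and the rest of that table may name others. The one with the most reads, a beta-2C chain (CAP3_round1_contig_6873), was at 3.68 CPM in SMG, 24.0 in SMH and 29.5 in SB825 at 4 months. At 2 years it was at 254 CPM in SMG, 94.3 in SMH and 41.6 in SB825, and at 3 years at 114 CPM in SMG, 120 in SMH and 24.1 in SB825. It was thus lowest in the very colony where the 4 contigs were highest. Both were listed for differences between old and young, so their opposite levels in a 4-month-old colony are not independent of the listing. Together with 2 other beta-2C chains and a beta-3 chain it formed a set of 4 contigs with reads in all colonies, grouped after their values were seen, at 15.6 to 120 CPM at 3 years and 1.25 to 29.5 CPM at 4 months. Summed over contigs, the 4 listed tubulins and this set were at 1029 and 10.6 CPM in the 4-month-old SMG colony, but at 73.5 and 635 CPM in the 2-year-old SMG colony. In SB825 each contig of this set was lower at 3 years than at 4 months, and the sums over the listed tubulins and the set were at 95.6 and 95.2 CPM at 4 months, 82.8 and 139 CPM at 2 years, and 84.9 and 79.4 CPM at 3 years.

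A further 4 of the 10, with 2 named beta-2C and 2 named alpha-3C/D, had at most 2 reads in any 4-month-old colony and 0.130 to 14.2 CPM at 3 years. The remaining 2 were a beta-2C chain and the alpha chain with the most reads, alpha-1B (Bot_c19190), which reached 30.4 CPM at 3 years in SMG and 166 CPM at 2 years in SMH, while the other colonies had 0.0906 CPM or less. Both contigs showed this pattern. Of all reads on the 14 tubulin contigs considered here, the 4 listed ones took 98.8% to 99.2% in the 4-month-old SMG libraries. At the same age they took 74.3% to 78.0% in SMH and 46.5% to 55.9% in SB825. At 2 years they took 8% to 18.6% in SMG, 17.4% to 19.3% in SMH and 30.7% to 40.0% in SB825. At 3 years they took 18.5% to 20.1% in SMG, 14.9% to 18.6% in SMH and 30.8% to 55.4% in SB825. The median SB825 library was at 54.6% at 3 years and 49.2% at 4 months. Nearly identical tubulin copies may share reads, and how reads with several matches were placed is not given in the sources used here, so the split between contigs of similar name is uncertain.

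**Figure D4:**
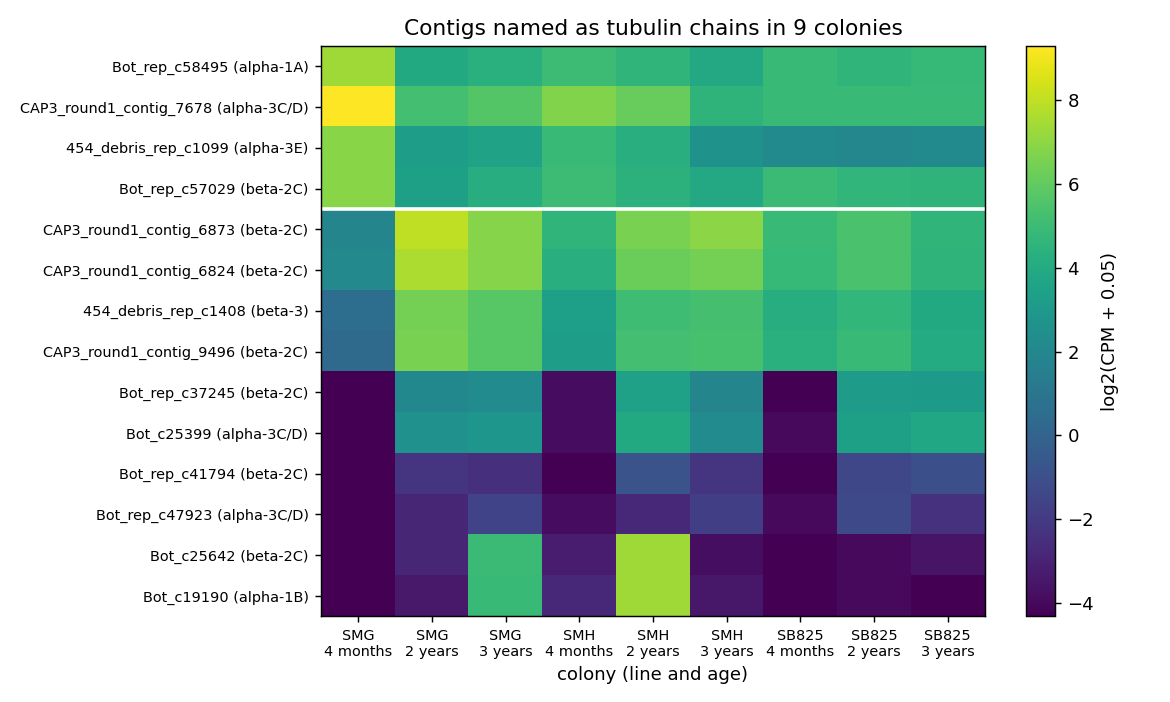
Heat map of log2(CPM + 0.05) for the 14 tubulin contigs considered here (rows) in the 9 colonies (columns, by line and age). The 4 described in full lie above the white line. The 4-month-old SMG colony is brightest for the 4 contigs at 118 to 631 CPM and at 0 to 4.19 CPM for the 10 below the line.

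Markers of sperm and cilia, structures built on microtubules, were higher at 3 years in SMG and SMH, where the 4 contigs were lower. The summed level of 3 sperm markers (contigs named after fibrous sheath-interacting protein 2 and a testis-specific kinase of the TSSK family) was 41.8 to 245 CPM in 3-year-old colonies and 2.24 to 57.2 CPM in 4-month-old colonies, with the minimum in the 4-month-old SMG colony. By line it was 245 CPM at 3 years and 2.24 CPM at 4 months in SMG, 146 and 5.45 CPM in SMH, and 41.8 and 57.2 CPM in SB825, where it was lower at 3 years. The 30 contigs named as axonemal dynein heavy chains, the motors that bend cilia and sperm tails, summed to 23.3 to 73.6 CPM at 3 years. At 4 months they summed to 2.58 to 16.9 CPM, and 13 of them were at 0 in SMG and 5 in SMH. By line the dynein sum was 73.6 CPM at 3 years and 2.58 CPM at 4 months in SMG, and 46.2 and 5.16 CPM in SMH. In SB825 it was 23.3 and 16.9 CPM, so the dyneins were higher at 3 years there too. All 3 markers and all 30 dyneins were higher at 3 years over the lines together, with median log2 differences of 2.66 and 2.78, but both lists come from the study's table of old and young differences and are not independent evidence of that direction. Their part in the tubulin result was not tested. The other 6 contigs on the short list, for actin, collagen, apoptosis and cell division, were all lower at 3 years, with a median log2 difference of -1.88, against -2.33 for the 4 tubulins.

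Of these lists none was called in the test of the 2-year-old colonies: 0 of 8 tested other tubulin chains, 0 of 30 axonemal dyneins, 0 of 5 contigs for motors and microtubule-associated proteins and 0 of 3 sperm markers, as for the 4 tubulins. Their median log2 differences were 1.75, 2.32, 1.03 and 1.74 in that order, against -0.86 for the 4 tubulins. Within the 2-year-old libraries 30 of 30 axonemal dyneins were called higher in SMG than in SB825, against 31.6% of all contigs, and 28 of 30 were called higher in SMG than in SMH, against 23.5% of all contigs, while all 4 tubulins were lower in SMG than in SMH. The enzyme TTLL11, which adds glutamate chains to tubulin, was at 2.44 to 10.7 CPM at 3 years and 0.550 to 2.59 CPM at 4 months. The 5 contigs for motors and microtubule-associated proteins summed to 8.13 to 34.1 CPM at 3 years and 49.7 to 89.7 CPM at 4 months. Only 1 of them was lower at 3 years, named dynactin subunit 1 (Bot_c9202), part of the complex that couples dynein to its cargo. The median log2 difference of the 5 was 2.18, higher at 3 years, so the sum does not show the direction of most of them. The 2 contigs named elongation factor 1-alpha, a translation factor, summed to 1.40 to 31.9 CPM at 3 years and to at most 0.0544 CPM at 4 months. All of these come from the same table of old and young differences.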

How the data were processed

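RNA-seq counts of 27 whole-colony libraries were used. The authors trimmed the start of the reads, aligned pairs to an EST assembly using Bowtie 0.12.7, and deposited raw counts of reads per contig (SAMtools 0.1.18 and CASAVA 1.8.2 are named in the submitters' processing notes). All counts are even, so a pair appears to count as 2 reads. A deposited comparison of old with young libraries by DESeq 1.10.1 (mean normalized counts, fold changes, p-values) was not used. The labels write SMG at every age; the count table writes SMGO for the 4-month-old libraries.

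Counts were summed to 9 colonies and fitted in edgeR 4.0.16 (R 4.3.3; TMM, filterByExpr, robust glmQLFit, glmQLFTest), with Benjamini-Hochberg adjustment over 43920 contigs (40985 for the 2-year-old libraries) and a threshold of 0.10. The functions were tested on simulated data. Log2 CPM for likeness used a prior count of 2. DESeq2 1.42.0, other scalings, no filter, blocks and left-out colonies were alternatives. Colonies of a line deviated together (r 0.27 to 0.64 across contigs) and are one family. Libraries of a colony differed by more than sampling noise.

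The members, lists and tests were chosen with earlier results of these data known. The rule for named contigs takes the 4 tubulins and the 3 most similar contigs of each. It adds the alpha and the beta chain with the most reads among the other tubulins at hand. Contig sequences and lengths were not used here.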

Additional observations from a re-analysis of the deposited data

Results flagged for a closer look

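The change between 2 and 3 years ran in opposite directions in SMG and SMH for each of the 4 tubulin contigs, with all 3 libraries of the 3-year-old colony on one side of all 3 libraries of the 2-year-old colony. Of all contigs, 5.4% showed the same pair of directions. The log2 difference of tubulin alpha-1A (Bot_rep_c58495) was 0.333 in SMG and -0.679 in SMH. That of alpha-3C/D (CAP3_round1_contig_7678) was 0.388 in SMG and -1.59 in SMH. That of alpha-3E was 0.279 in SMG and -1.67 in SMH. That of beta-2C (Bot_rep_c57029) was 0.778 in SMG and -0.515 in SMH. Each line has 1 colony at each age, and the difference between lines was not tested.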

How the results depend on the processing

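The direction of the 3-year against 4-month description held under all scalings tried and with each line left out, but its median over the 4 tubulins ran from -2.79 to -1.04 with a line left out and was -0.87 without the 4-month-old SMG colony, where alpha-3C/D was at -0.98. In the 2-year test, calls over all contigs were 0 to 3 with a colony or line left out (3 without the 4-month-old SB825 colony) and 116 in DESeq2, and the 4 tubulins were never called. With a colony or line left out, the difference ran from -1.77 to 0.25 for alpha-3C/D and from -1.73 to 0.31 for alpha-3E, both highest without the SMG line, and it was 0.01 for alpha-3E without the 4-month-old SMG colony. In the line test over ages, calls were 9021 in DESeq2, 3742 with library totals, 3029 without the age covariate, 3311 without line SMG, 0 without line SB825 or line SMH, and 0 to 4214 with 1 colony left out. The 0 came without SB825 at 4 months or at 2 years or SMH at 2 years and the 4214 without SMG at 4 months, and calls were 10 without SMH at 4 months, 11 without SMG at 2 years, 458 without SB825 at 3 years, 715 without SMG at 3 years and 861 without SMH at 3 years. None of these fits called a tubulin (adjusted p 0.108 to 0.998). Within the 2-year-old libraries, alpha-3C/D was at -0.48 between SMG and SB825 with library totals. Alpha-1A between SMH and SB825 was at -0.0198 in DESeq2, -0.0033 without the filter, -0.0194 with median-of-ratios factors (an alternative added after the data were seen), -0.55 with library totals (past the threshold, adjusted p = 0.0142) and -0.077 to 0.070 with a library left out. Beta-2C between SMH and SB825 passed the threshold with library totals, with median-of-ratios factors (-0.21) and without the third SMG library (-0.19). With line as a replicate block the 2-year test still called 0 contigs, and the tubulin differences were -0.68 for alpha-1A, -0.59 for alpha-3C/D, -0.57 for alpha-3E and -0.70 for beta-2C. With the replicate number as a replicate block, the 2-year-old libraries gave 29808 called contigs with all 4 tubulins among them. Those numbers mark no pairing (r -0.11 to 0.06 over 9 pairs). The block changed no other call. With 3 colonies per age and libraries of a colony that may be technical, no statement here extends to other colonies.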
